A study of Mus musculus with 4 samples.

Results

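The genes examined here make and sense eicosanoids, the signalling lipids derived from arachidonic acid. They are 10 genes, Alox15, Alox5, Alox5ap, Ltc4s, Lta4h, Ltb4r1, Ptgs1, Ptgs2, Ptgis and Ptges, of 24963 genes with a curated RefSeq transcript on an autosome. Their chromatin was followed through every merged region whose midpoint had the transcription start site (TSS) of one of these genes as its nearest TSS, or that overlapped one of their gene bodies. The 10 genes had 72 such regions of 70744 in the series. Accessibility was measured with ATAC-seq (a transposase inserts sequencing adaptors wherever DNA is open) in large peritoneal macrophages (LPMs), the main resident macrophage of the peritoneal cavity. Cells came from C57BL/6 mice of 9 weeks, either Rxrab fl/fl, with loxP sites in the genes of the retinoid X receptors RXRα and RXRβ and no Cre (control), or LysMCre+ Rxrab fl/fl, in which Cre from the myeloid LysM gene deletes both (RXR-deficient). The groups thus differ in Cre as well as in the receptors, and any effect of Cre itself cannot be told apart. Each genotype has 2 libraries of 40000 sorted cells, all of library batch 1. The labels do not say whether libraries came from separate mice, so p values measure the spread between libraries, and samples that did not cluster with their group were left out by the authors, which can make that spread too small.

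Arachidonic acid, released from membranes by phospholipases, enters 2 main branches. In the lipoxygenase branch, ALOX5 and its membrane partner FLAP (Alox5ap) make leukotriene A4, which LTA4H turns into leukotriene B4, the ligand of the receptor BLT1 (Ltb4r1), and LTC4S turns into leukotriene C4. ALOX15 oxygenates arachidonic and other polyunsaturated fatty acids and marks resident peritoneal macrophages of the mouse. In the cyclooxygenase branch, PTGS1 (COX-1) and the inducible PTGS2 (COX-2) make prostaglandin H2, which PTGIS turns into prostacyclin and PTGES into prostaglandin E2.

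The libraries differed in yield. The control replicates 1 and 3 held 38048 and 16097 peaks, and RXR-deficient replicates 1 and 2 held 65421 and 55581. At the 15199 regions called in all 4 libraries, the median fold enrichment (tags at the summit over the local background) was 14.5 and 7.52 in control LPMs and 15.1 and 12.0 in RXR-deficient LPMs, so control replicate 3 stood apart. The lowest local background of a library, which follows its depth, was 1.97 and 1.06 tags per 200 bp in control LPMs and 1.33 and 1.08 in RXR-deficient LPMs. Promoter peaks of 7 placed LPM markers were called for 6 and 5 genes in control LPMs and for 7 and 7 in RXR-deficient LPMs, and that of Gata6, the factor that defines these cells, was called in every library (fold enrichment of 11.3 and 7.61 against 5.80 and 8.61). Of 8 markers of small peritoneal macrophages and monocytes, promoters were called for 2 and 1 in control LPMs and for 7 and 6 in RXR-deficient LPMs, and their part in the results below was not tested. Beside these marker counts, 52.0% and 21.9% of all merged regions were called in control LPMs and 90.7% and 77.2% in RXR-deficient LPMs. Mast cell promoters were called for 2 and 0 against 2 and 2 of 9 markers (Hdc and Gata2 only, with no region at all at Cpa3, Ms4a2, Fcer1a, Mcpt4 and Cma1), neutrophil promoters for 1 and 0 against 3 and 2 of 7, and B cell promoters for 1 and 0 against 1 and 1 of 7 (Ebf1), and no promoter of an eosinophil, T cell or mesothelial marker was called. The promoters of the targeted genes Rxra and Rxrb kept a peak in all 4 libraries, which does not check the deletion, since the deletion removes exons.

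Of the 72 eicosanoid regions, 49 and 23 were called in control replicates 1 and 3, and 64 and 62 in RXR-deficient replicates 1 and 2. These are 68.1% and 31.9%, and 88.9% and 86.1%, of the regions, beside 52.0% and 21.9%, and 90.7% and 77.2%, of all merged regions. All 4 libraries shared 22 regions (30.6%, against 21.5% of all merged regions), and 20 more were missed by control replicate 3 alone (27.8%, against 25.5%). Both RXR-deficient libraries and no control library called 12 regions (16.7%, against 22.8%). The reverse pattern, both control libraries and no RXR-deficient library, was found at 0 regions (0.0452% of all merged regions). The remaining regions were called in 1 RXR-deficient library only (11) or in other combinations (7). By place, 10 regions lay at a promoter (from 1 kb before a TSS to 200 bp after it), 22 in introns, 2 in coding exons, 2 in 3′ UTR exons and 36 between genes, and 53 lay over 5 and up to 50 kb from the TSS. Some were shared with other genes, since 3 of the Ltc4s regions lay in Maml1, 1 Alox5 region lay in Marchf8 and 2 Lta4h regions in the Lta4h body were closer to the TSS of Hal.

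**Figure D1:**
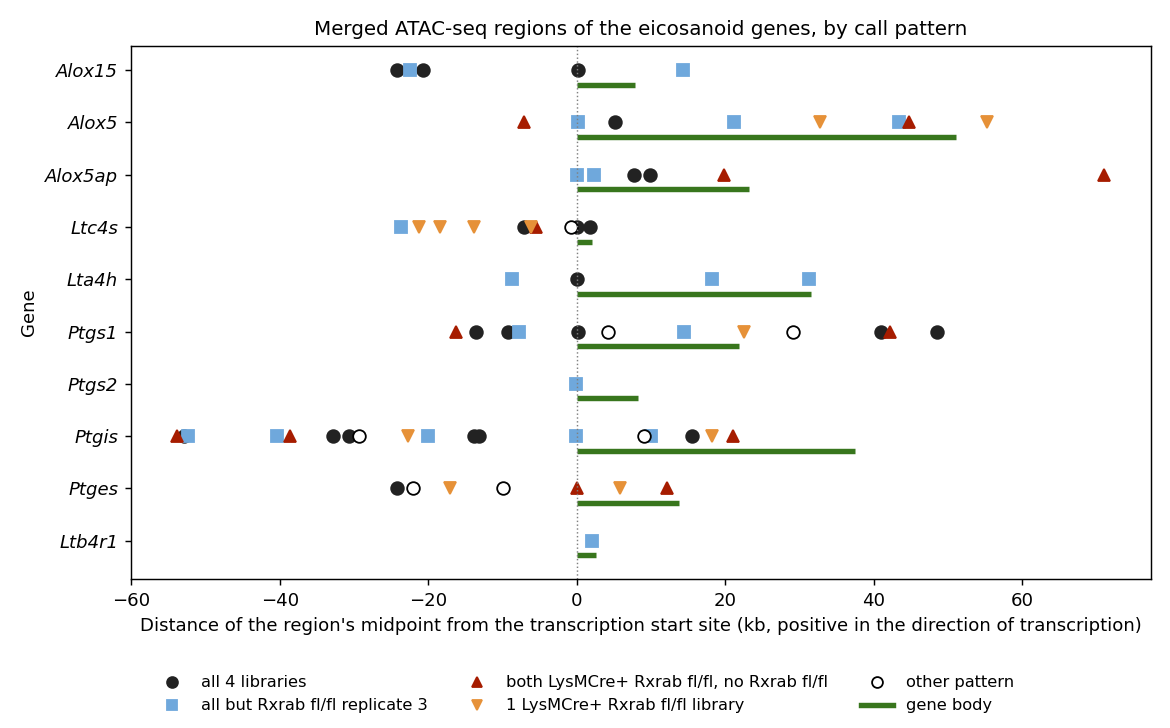
Merged ATAC-seq regions of the 10 genes by distance of the region's midpoint from the TSS (x axis, kb, positive in the direction of transcription), 1 row per gene, with the gene body as a green bar and the symbol giving the libraries that called the region. Ptgis (18 regions) and Ptgs1 (12) hold the most regions, and Ptgs2 and Ltb4r1 hold 1 each.

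When the 16097 peaks of lowest q value were taken from each library, the order of the genotypes by number of eicosanoid regions changed. At this equal number, 30 regions belonged to the 10 genes, and 25 and 23 of them were called in control LPMs against 14 and 20 in RXR-deficient LPMs. These are 83.3% and 76.7%, and 46.7% and 66.7%, of the 30, beside 71.4% and 69.5%, and 71.9% and 72.0%, of all regions of the equal lists. No region was called in both RXR-deficient libraries and neither control library (0 of 30, against 7.82% of the 22300 regions of the series). The reverse held for 4 of 30 (13.3%, against 7.22%), which were the Alox15 promoter and 3 Ptgs1 regions, 9.3 kb upstream and 40.9 and 48.6 kb downstream of its TSS. The direction of the count thus depended on how many peaks each library contributed. For Ptgs1 the equal lists held 6 and 5 regions in control LPMs against 1 and 2 in RXR-deficient LPMs, and for Alox5 they held 2 and 1 against 2 and 4.

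**Figure D2:**
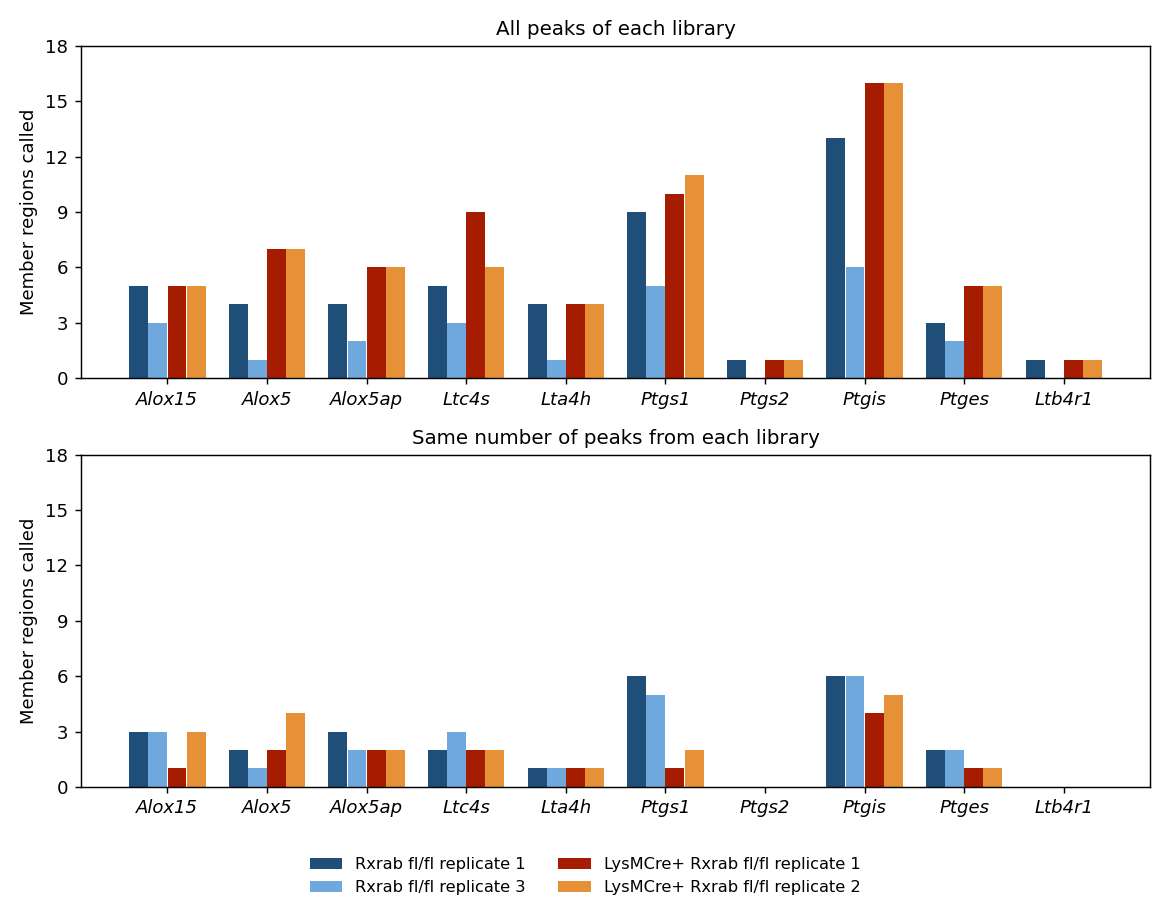
Number of member regions called per gene (y axis) in each library, with all peaks (top) and with equal numbers of peaks per library (bottom), no error bars since each bar is 1 library. With all peaks the RXR-deficient bars of Ptgs1 reach 10 and 11 against 9 and 5, and at equal number they fall to 1 and 2 against 6 and 5.

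For the 22 regions called in all 4 libraries, the median of each library was subtracted from its log2 fold enrichment values, and genotypes were compared with limma over all 15199 shared regions. No member region passed an adjusted p of 0.05 with a log2 fold change past 1, in either direction (0 of 22, against 0.0395% of all regions higher and 0.0461% lower in RXR-deficient LPMs). At an unadjusted p under 0.05, 6 of 22 members stood, beside 22.0% of all regions. The median change of the members was −0.27 on the log2 scale, with 17 below 0 and 5 above, and that of all regions was −0.087. Both RXR-deficient libraries lay below both control libraries at 11 of 22 (against 32.9% of all regions) and above them at 3 (against 22.3%).

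The tags at each summit (the pileup) were recovered from the fold enrichment and p value, and give a second measure without the division by the background. On the pileup, 1 member region passed the threshold, lower in RXR-deficient LPMs (against 4.98% of all regions), and 0 passed as higher (against 2.49%). The median change was −0.35 on the log2 scale for the members and −0.104 for all regions. Both RXR-deficient libraries lay below both control libraries at 12 of 22 (against 36.9%) and above them at 4 (against 25.2%). With 2 libraries a group, an exact two-sided permutation test of a single region cannot go below p = 0.33, so calls rest on the variance that limma shares across regions. In sorted cells measured in bulk, fewer cells with an open region and less access per cell cannot be told apart.

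**Figure D3:**
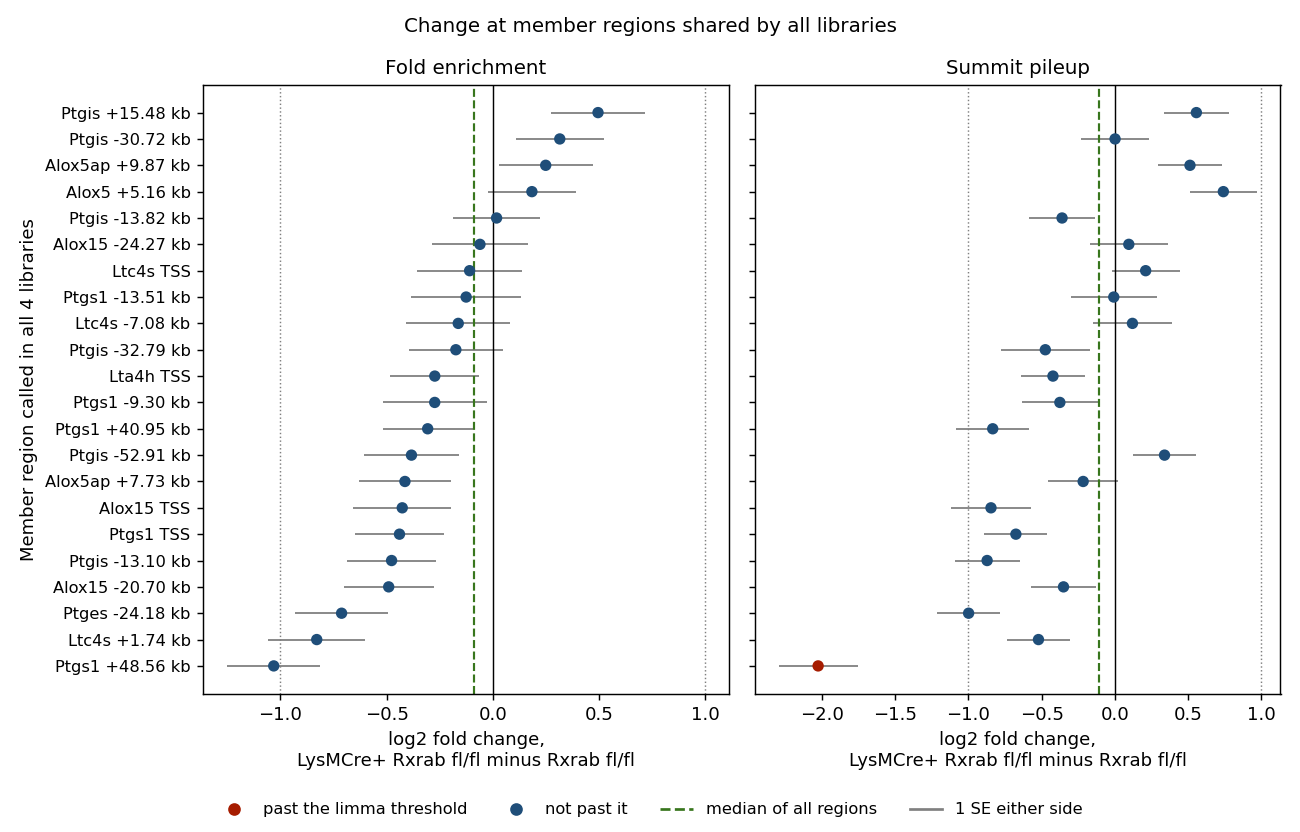
Change at the 22 member regions called in all 4 libraries, as log2 fold change of RXR-deficient minus control LPMs (LysMCre+ Rxrab fl/fl minus Rxrab fl/fl) (x axes) in fold enrichment (left) and summit pileup (right), points with 1 SE either side, dotted lines at the limit of 1 and the median of all regions dashed. Ptgs1 at 48.6 kb lies lowest in both (−1.03 and −2.03) and is the only point past the threshold, on the pileup.

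Consensus motifs were read on both strands in the 201 bp around each summit. The GATA motif was searched as AGATAA and, in a second spelling, as TGATAA. That of PU.1 was GAGGAAGT, that of AP-1 was TGANTCA, that of C/EBP was TTGCNNAA and that of KLF factors was GGGNGTGG. The nuclear receptor core motif was searched as AGGTCA and, in a second spelling, as GGGTCA, with direct repeats of a relaxed form of this core spaced by 1, 4 or 5 bases (DR1, DR4 and DR5), which overlap the core motif. AP-1 letters stood in 14 of 72 member windows (19.4%, against 12.7% of all merged regions), the core motif in 16 (22.2% against 21.9%), GATA in 9 (12.5% against 10.6%), C/EBP in 7 (9.72% against 11.1%), PU.1 in 5 (6.94% against 9.30%) and KLF in 4 (5.56% against 10.4%). DR1 and DR4 were found in 0 windows (0.164% and 0.100% of all regions), and DR5 in 1 (1.39% against 0.151%), upstream of Ltc4s. RefSeq promoters of 300 bp (GRCm38.p6) were matched for 7 of the 10 genes, and PU.1 letters stood in 2 of them, Ptgs1 and Ltb4r1 (against 3.25% of 31396 promoters). KLF letters stood in 3 of the 7 (against 17.7%) and C/EBP letters in 1 (against 10.9%), and the GATA (18.6%), AP-1 (7.84%) and core (27.6%) motifs and the direct repeats in 0. In the sequences printed below, capitals mark matches to these motifs, and a match is a description of letters only.

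Alox15, a lipoxygenase of resident peritoneal macrophages (chr11:70344147-70352031, minus strand, mm10), had 5 regions, 5 and 3 of them called in control replicates 1 and 3 and 5 and 5 in RXR-deficient replicates 1 and 2. Its promoter region was also its strongest (chr11:70351553-70352308), with a fold enrichment of 12.5 and 9.42 in control replicates 1 and 3 and of 12.0 and 9.05 in RXR-deficient replicates 1 and 2. These raw values overlapped between genotypes. After centring on the library medians both RXR-deficient libraries lay below both control libraries, and the log2 change was −0.43 ± 0.23 (SE, adjusted p = 0.293 from limma). For the pileup, with 82 and 25 tags against 49 and 43, it was −0.85 ± 0.27 (adjusted p = 0.0705 from limma). The Alox15 promoter did not pass the threshold in either measure, and it dropped out of both RXR-deficient lists at equal peak number. Without control replicate 1 it passed on the pileup (−1.13, adjusted p = 0.0148 from limma), while its change in fold enrichment was −0.70 (adjusted p = 0.0154), short of the fold. Upstream of Alox15 lay a cluster of 3 regions between 20.7 and 24.3 kb, in which the nearest (chr11:70372436-70373026) had 13.1 and 7.35 against 11.2 and 7.31. The next (chr11:70374318-70374719) was missed by control replicate 3 and had 5.93 against 8.64 and 9.25. The 200 bases before the Alox15 TSS (chr11:70352032-70352231, mm10, minus strand), shown because this promoter is one of the 4 regions lost from both RXR-deficient lists at equal number, held none of the motifs.
Alox15 upstream: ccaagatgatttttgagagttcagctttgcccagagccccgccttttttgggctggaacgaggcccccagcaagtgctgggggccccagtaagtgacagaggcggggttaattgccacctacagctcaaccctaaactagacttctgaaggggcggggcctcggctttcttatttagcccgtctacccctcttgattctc

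Alox5, the 5-lipoxygenase that starts leukotriene synthesis (chr6:116410071-116461178, minus strand), had 8 regions, with 4 and 1 called in control LPMs and 7 and 7 in RXR-deficient LPMs. Its strongest region lay in an intron 5.16 kb downstream of the TSS (chr6:116455772-116456272), with a fold enrichment of 15.1 and 8.80 in control LPMs and of 19.2 and 14.9 in RXR-deficient LPMs. This was the Alox5 region shared by all libraries, and its log2 change was 0.18 ± 0.21 (SE, adjusted p = 0.620 from limma). On the pileup (96 and 24 tags against 171 and 125) it was 0.74 ± 0.23 (adjusted p = 0.0621 from limma), the highest pileup change among the 22 members. The promoter (chr6:116460791-116461359) had 11.0 in control replicate 1, no peak in replicate 3, and 11.4 and 11.2 in RXR-deficient LPMs, close to each other in the 3 libraries that called it. Of 4 Alox5 regions called in RXR-deficient LPMs only, 2 were called in both libraries, and the stronger lay 7.12 kb upstream with 10.0 and 12.8. The window around the summit of the intronic region (chr6:116455908-116456108, plus strand), shown as the strongest site of the gene, held a PU.1 match, the motif of a core macrophage factor.
Alox5 intron: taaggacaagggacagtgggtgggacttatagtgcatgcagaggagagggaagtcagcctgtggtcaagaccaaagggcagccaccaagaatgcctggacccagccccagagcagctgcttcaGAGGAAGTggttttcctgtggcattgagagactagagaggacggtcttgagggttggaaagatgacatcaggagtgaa

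Alox5ap encodes FLAP, which presents arachidonic acid to ALOX5 (chr5:149265004-149288153, plus strand). It had 6 regions, with 4 and 2 called in control LPMs and 6 and 6 in RXR-deficient LPMs. Its strongest region was again intronic, 7.73 kb downstream of the TSS (chr5:149272483-149272982), with 13.1 and 8.78 against 12.1 and 8.92 in fold enrichment. The log2 change there was −0.41 ± 0.22 (SE, adjusted p = 0.282 from limma), whereas the neighbouring region at 9.87 kb (10.1 and 7.09 against 14.1 and 12.0) changed by 0.25 ± 0.22 (adjusted p = 0.525 from limma), so the 2 shared regions of the gene had changes of opposite sign and neither passed the threshold. The Alox5ap promoter (chr5:149264774-149265224) had 4.63 in control replicate 1, no peak in replicate 3, and 7.33 and 6.87 in RXR-deficient LPMs. Both RXR-deficient values lay above the single control value. Of 2 regions called in both RXR-deficient libraries alone, the stronger lay in the gene 19.9 kb from the TSS (11.3 and 6.60).

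Ltc4s, the synthase of the cysteinyl leukotriene C4 (chr11:50236461-50238532, minus strand), had 10 regions, with 5 and 3 called in control LPMs and 9 and 6 in RXR-deficient LPMs. The promoter region was its strongest (chr11:50238216-50238877), with a fold enrichment of 8.29 and 6.99 in control LPMs and of 9.71 and 8.55 in RXR-deficient LPMs. Although both raw RXR-deficient values were the higher ones, the centred log2 change was −0.11 ± 0.25 (SE, adjusted p = 0.823 from limma), and the pileup gave 0.21 ± 0.23 (adjusted p = 0.559 from limma). A second region at the promoter window, 0.71 kb upstream, was called in 1 library of each genotype (3.96 and 3.66). The Ltc4s intron region 1.74 kb downstream (chr11:50236513-50237069) had 10.7 and 7.96 in control LPMs and 7.52 and 5.99 in RXR-deficient LPMs. There both RXR-deficient libraries lay below both control libraries before and after centring, with a log2 change of −0.83 ± 0.23 (SE, adjusted p = 0.0841 from limma), which did not pass the threshold. It passed in fold enrichment without control replicate 1 (−1.09, adjusted p = 0.00126 from limma), where 2 of 22 members passed as lower and 0 as higher (against 3.55% and 1.61% of all regions), the lower ones being this region and the Ptgs1 region at 48.6 kb. The upstream regions lay between genes or within Maml1. The 1 called in both RXR-deficient libraries alone lay 5.5 kb upstream (4.55 and 6.76). The region 23.7 kb upstream, in an intron of Maml1 (chr11:50262072-50262395), was called in all libraries but control replicate 3 with 7.68 against 7.34 and 8.41, values that differed little between genotypes. It is shown (window chr11:50262151-50262351, plus strand) since it held the DR5, a repeat known to bind heterodimers of RXR with retinoic acid receptors.
Ltc4s far upstream: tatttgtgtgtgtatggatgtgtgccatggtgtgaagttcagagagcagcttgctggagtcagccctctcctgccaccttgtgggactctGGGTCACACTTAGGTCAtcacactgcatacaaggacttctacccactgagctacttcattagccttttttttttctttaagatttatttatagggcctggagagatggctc

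Lta4h, the hydrolase that makes leukotriene B4 (chr10:93453396-93484896, plus strand), had the most enriched promoter of the 10 genes and 4 regions. The promoter region (chr10:93452946-93453909) had a fold enrichment of 22.5 and 13.4 in control LPMs and of 21.0 and 16.3 in RXR-deficient LPMs. It ranked at percentiles 91.1 and 89.9, and 83.3 and 79.6, among the shared regions of the same libraries. The centred log2 change was −0.27 ± 0.21 (SE, adjusted p = 0.455 from limma), while pileups gave −0.42 ± 0.22 (adjusted p = 0.206 from limma). The other 3 Lta4h regions were all missed by control replicate 3. That 8.73 kb upstream had 6.21 in control replicate 1 and 14.3 and 12.1 in RXR-deficient LPMs, and the intronic one 5.05 against 7.74 and 7.20. The one in a coding exon, 31.3 kb downstream of the TSS, had 5.37 against 6.25 and 3.08, on either side of the control value.

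Ltb4r1, the receptor of leukotriene B4 (chr14:55765962-55768492, plus strand), had 1 region and none at its promoter. The region lay in the coding exon 2.03 kb downstream of the TSS (chr14:55767743-55768238), with a fold enrichment of 5.44 in control replicate 1, no peak in replicate 3, and 7.25 and 6.87 in RXR-deficient LPMs. No Ltb4r1 peak was among the equal number of peaks of any library.

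**Figure D4:**
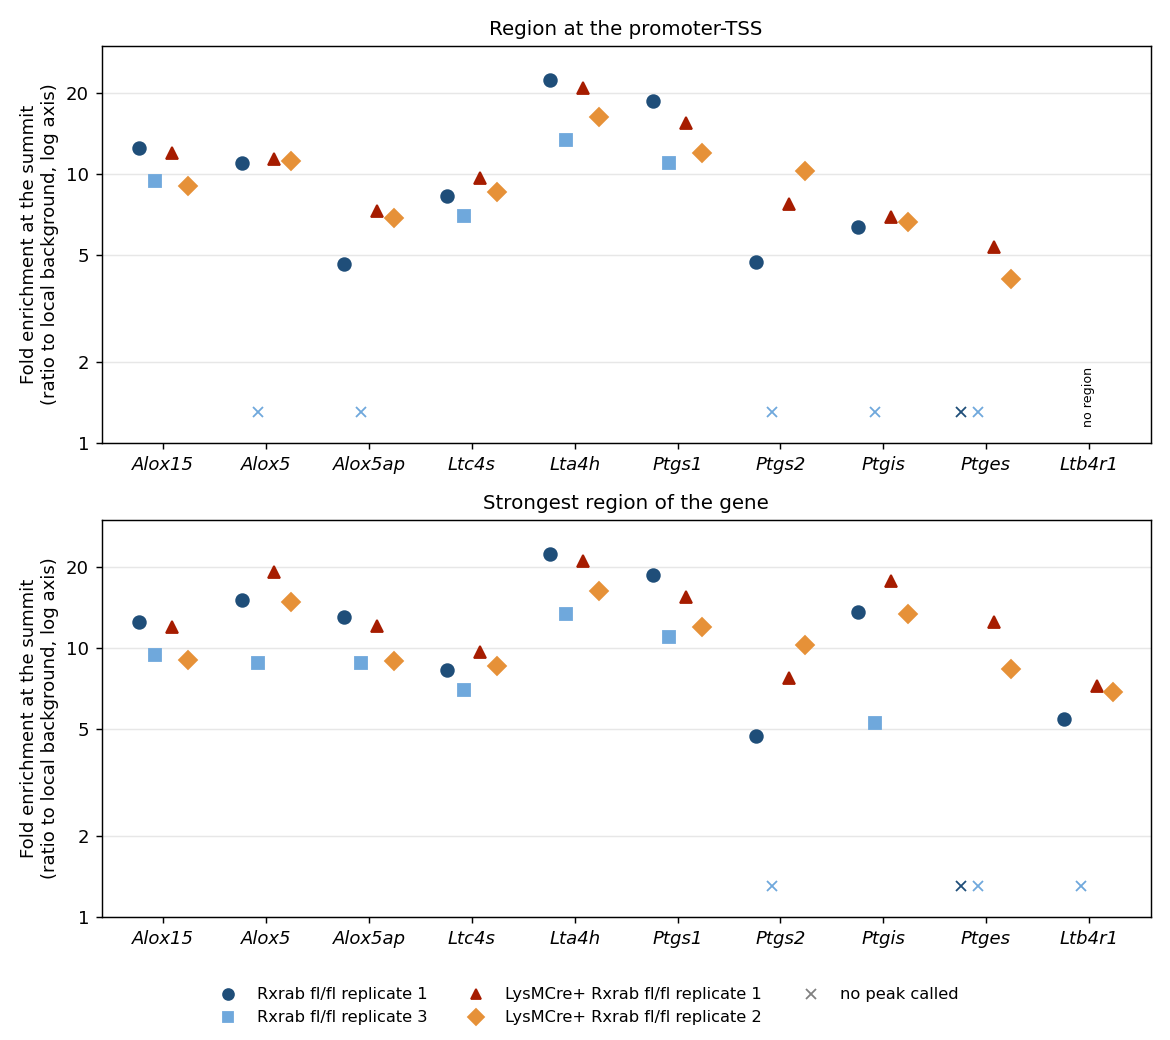
Fold enrichment at the summit (y axes, ratio to local background, log scale) in each library at the promoter region of each gene (top) and at its strongest region (bottom), where a cross marks a library with no peak. Lta4h has the highest promoter (13.4 to 22.5), the promoters of Alox5, Alox5ap, Ptgs2 and Ptgis lack a peak in control replicate 3, and that of Ptges lacks one in both control libraries.

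Ptgs1 encodes COX-1, the cyclooxygenase that is expressed without induction (chr2:36230426-36252272, plus strand). It had 12 regions, with 9 and 5 called in control LPMs and 10 and 11 in RXR-deficient LPMs. All 5 shared regions of Ptgs1 had a log2 change below 0 in both measures. The smallest change, 13.5 kb upstream, was −0.13 in fold enrichment and −0.0065 on the pileup. The medians of all regions were below 0 as well (−0.087 and −0.104). Both RXR-deficient libraries lay below both control libraries at 3 of the 5 in fold enrichment (against 32.9% of all regions). On the pileup they did so at 4 (against 36.9%). The promoter was its strongest region (chr2:36230280-36230838), with a fold enrichment of 18.6 and 11.0 in control LPMs and of 15.5 and 12.0 in RXR-deficient LPMs. The change there was −0.44 ± 0.21 (SE, adjusted p = 0.237 from limma). The pileup there was 162 and 31 tags against 99 and 66, a change of −0.68 ± 0.22 (adjusted p = 0.0697 from limma).

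The Ptgs1 region that passed a threshold lay 48.6 kb downstream of the TSS, between genes (chr2:36278808-36279159), with Ptgs1 as the nearest RefSeq gene and the next TSS at 87.0 kb. Its fold enrichment was 12.9 and 7.34 in control LPMs and 6.02 and 6.25 in RXR-deficient LPMs, and its pileup was 52 and 15 tags against 13 and 12. Both measures were lower in both RXR-deficient libraries than in either control library. Against control replicate 3, the library with the fewest peaks, the gap was only 15 tags against 13 and 12. The median pileup of the shared regions, on which values were centred, was 97 and 20 tags in control LPMs and 99 and 65 in RXR-deficient LPMs. The log2 change was −2.03 ± 0.27 on the pileup (SE, adjusted p = 0.0183 from limma). That in fold enrichment was −1.03 ± 0.22 (adjusted p = 0.0629 from limma), past the fold but not past the adjusted p. This was the lowest change of the 22 members in both measures. The region was the 1 of 22 members that passed as lower on the pileup (4.55%, against 4.98% of all regions), so the members were near the share of all regions. With no centring its change in fold enrichment was −0.66. The pileup call was kept when either control library or RXR-deficient replicate 1 was left out. It was lost without RXR-deficient replicate 2, where the change was −2.28 and no region of the series passed.

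The other Ptgs1 regions lost from both RXR-deficient lists at equal number did not pass either threshold. At 9.3 kb upstream (chr2:36220932-36221320) the fold enrichment was 9.93 and 3.86 against 8.98 and 4.87, with a change of −0.27 ± 0.24 (SE, adjusted p = 0.527 from limma). At 40.9 kb downstream (40.95 kb with all peaks, chr2:36271145-36271609) it was 11.7 and 6.03 against 8.91 and 8.64. The change of this region was −0.31 ± 0.21 (adjusted p = 0.410 from limma). Its pileup of 67 and 16 tags against 35 and 32 gave −0.83 ± 0.25 (adjusted p = 0.0577 from limma). Of 2 regions called in both RXR-deficient libraries alone, the stronger lay 42.2 kb downstream (8.01 and 5.28), next to the region just described. Not all Ptgs1 regions were lower in RXR-deficient LPMs. An intronic region 14.5 kb downstream had 4.58 in control replicate 1, no peak in replicate 3, and 9.75 and 8.70 in RXR-deficient LPMs. Without control replicate 3 its log2 change was 0.78 in fold enrichment and 0.66 on the pileup.

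Without control replicate 3, an alternative chosen after the data were seen for the pileup, 42 member regions were shared by 3 libraries. On the pileup 7 of them passed the threshold as lower in RXR-deficient LPMs (16.7%, against 7.89% of all regions) and 0 as higher (against 5.17%). Of these 7, 5 were Ptgs1 regions, at the promoter (−1.13), at 7.83 and 9.3 kb upstream (−1.56 and −1.08) and at 40.9 and 48.6 kb downstream (−1.13 and −2.19), and the others lay 13.1 kb upstream of Ptgis (−1.34) and 24.2 kb upstream of Ptges (−1.45). In fold enrichment only the Ptgs1 region at 48.6 kb passed (1 of 42, against 1.21% lower and 2.21% higher of all regions). Here a single control library stands for its genotype and is assumed to vary like the others. With control replicate 1 left out instead, 2 of 22 passed as lower on the pileup and 0 as higher (against 8.28% and 3.23% of all regions), the lower ones being Ptgs1 at 48.6 kb and the Alox15 promoter. The Ptgs1 promoter then had −0.62 (adjusted p = 0.179 from limma) and the region at 9.3 kb −0.07 (adjusted p = 0.911), so these Ptgs1 calls depended on which control library was kept.

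Ptgs1 stretches are shown, the 200 bases before the TSS (chr2:36230226-36230425) and the windows of the 3 distal regions lost at equal number (chr2:36221023-36221223, chr2:36271247-36271447 and chr2:36278905-36279105), all mm10, plus strand. The promoter stretch held a PU.1 match close to the TSS, the region at 40.9 kb a C/EBP match, and the region that passed the threshold, at 48.6 kb, 2 GATA matches and 1 AP-1 match, while the region 9.3 kb upstream held none. GATA is the motif of GATA6, which defines the LPM programme, and its part at this region was not tested. GATA letters stood in 12.5% of the member windows, against 10.6% of all merged regions.
Ptgs1 upstream: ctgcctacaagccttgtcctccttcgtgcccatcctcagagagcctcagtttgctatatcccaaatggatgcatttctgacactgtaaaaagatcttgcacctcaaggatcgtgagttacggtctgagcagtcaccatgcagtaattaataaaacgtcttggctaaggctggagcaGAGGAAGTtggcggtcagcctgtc
Ptgs1 9.3 kb upstream: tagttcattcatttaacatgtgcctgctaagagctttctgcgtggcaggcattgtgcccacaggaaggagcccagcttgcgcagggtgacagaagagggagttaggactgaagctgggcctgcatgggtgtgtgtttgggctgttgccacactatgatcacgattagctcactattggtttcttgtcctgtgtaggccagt
Ptgs1 40.9 kb downstream: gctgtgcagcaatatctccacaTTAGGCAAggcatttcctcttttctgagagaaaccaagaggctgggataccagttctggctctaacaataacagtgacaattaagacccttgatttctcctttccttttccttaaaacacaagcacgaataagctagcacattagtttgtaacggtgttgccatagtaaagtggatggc
Ptgs1 48.6 kb downstream: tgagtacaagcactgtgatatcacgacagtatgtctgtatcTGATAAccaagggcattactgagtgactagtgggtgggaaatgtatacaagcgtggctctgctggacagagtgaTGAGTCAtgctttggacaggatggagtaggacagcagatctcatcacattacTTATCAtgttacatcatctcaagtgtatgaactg

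Ptgs2, the inducible cyclooxygenase COX-2 (chr1:150100031-150108234, plus strand), had only its promoter region (chr1:150099634-150100283), which also overlaps the antisense gene Ptgs2os. Its fold enrichment was 4.71 in control replicate 1 and 7.74 and 10.3 in RXR-deficient LPMs, with no peak in control replicate 3. The pileup behind these values was small, 13 tags against 17 and 21, and the region was among the equal number of peaks of no library.

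Ptgis, the prostacyclin synthase (chr2:167203194-167240605, minus strand), had the most regions, 18, of which 13 and 6 were called in control LPMs and 16 and 16 in RXR-deficient LPMs. Its strongest region lay in an intron 15.5 kb from the TSS (chr2:167224717-167225541), with 13.6 and 5.24 in control LPMs and 17.7 and 13.3 in RXR-deficient LPMs. The change there was the highest of the 22 members in fold enrichment, 0.50 ± 0.22 on the log2 scale (SE, adjusted p = 0.212 from limma), and did not pass the threshold. The promoter (chr2:167240107-167241345) was weaker, with 6.36 in control replicate 1, no peak in replicate 3, and 6.94 and 6.67 in RXR-deficient LPMs. Of the 6 shared Ptgis regions, 3 lay above 0 and 3 below in each measure. The lowest on the pileup lay 13.1 kb upstream (138 and 26 tags against 79 and 45), with −0.87 ± 0.22 (adjusted p = 0.0394 from limma), past the adjusted p but not past the fold. Of 3 Ptgis regions called in both RXR-deficient libraries alone, the strongest lay in the gene 21.0 kb from the TSS (11.0 and 6.67). A group of 3 regions lay 52.4 to 53.8 kb upstream, and the shared one, at 52.9 kb (chr2:167293324-167293701), had 12.1 and 6.52 against 11.5 and 6.73, with a change of −0.38 ± 0.22 (adjusted p = 0.324 from limma), whereas the pileup gave a change of the opposite sign, 0.34 ± 0.22, which did not pass the threshold either. Its window (chr2:167293417-167293617, plus strand) is shown because it held the most kinds of motif among the shared Ptgis regions, 2 core motifs, 1 GATA and 1 AP-1 match.
Ptgis far upstream: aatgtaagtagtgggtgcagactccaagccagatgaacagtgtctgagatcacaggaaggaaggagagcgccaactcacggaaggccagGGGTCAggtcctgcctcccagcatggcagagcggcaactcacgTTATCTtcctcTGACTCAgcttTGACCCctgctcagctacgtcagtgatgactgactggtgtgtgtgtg

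Ptges, the inducible synthase of prostaglandin E2 (chr2:30889471-30903297, minus strand), was the 1 gene whose promoter was called in RXR-deficient LPMs alone. The promoter region (chr2:30903074-30903420) had a fold enrichment of 5.37 and 4.09 there, from only 12 and 8 tags, and no peak in either control library. The strongest Ptges region lay in its 3′ UTR (chr2:30890997-30891328) and was likewise called in both RXR-deficient libraries alone, with 12.5 and 8.33 from 28 and 17 tags. Neither region was among the equal number of peaks of any library. The shared region 24.2 kb upstream (chr2:30927108-30927836), 25.5 kb from the TSS of Tor1b, had 11.4 and 7.67 in control LPMs and 8.59 and 6.33 in RXR-deficient LPMs. Its change was −0.71 ± 0.22 in fold enrichment (SE, adjusted p = 0.0998 from limma), while it was −0.998 ± 0.22 on the pileup (245 and 47 tags against 126 and 76, adjusted p = 0.0286 from limma), just short of the fold of 1. Of these 3 Ptges regions only the upstream one, present in all libraries, could be tested.

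Among 53 other genes of the pathway, 52 were placed, 48 had a region and 247 regions were found, 37 of them shared by all 4 libraries. No region passed in fold enrichment in either direction. On the pileup 1 of the 37 passed as higher in RXR-deficient LPMs (against 2.49% of all regions), 22.2 kb into Tbxas1 (thromboxane synthase, log2 change 1.00 ± 0.26, adjusted p = 0.0397 from limma), and 1 as lower (against 4.98%), 2.04 kb upstream of Hpgd (the dehydrogenase that inactivates prostaglandins, −1.57 ± 0.27, adjusted p = 0.0199 from limma), both named after their values were seen. The Tbxas1 region had a fold enrichment of 15.2 and 7.92 in control LPMs and of 14.7 and 12.7 in RXR-deficient LPMs, values that overlapped. The Hpgd region had a fold enrichment of 15.9 and 11.5 in control LPMs and of 9.52 and 5.71 in RXR-deficient LPMs. Hpgd as a whole had 8 regions, with 2 and 2 called in control LPMs and 6 and 7 in RXR-deficient LPMs. Of these, 3 were called in both RXR-deficient libraries alone. Its promoter had a peak in RXR-deficient LPMs only (4.76 and 4.97). Both RXR-deficient libraries alone called 53 of the 247 regions (21.5%, against 22.8% of all merged regions), and both control libraries alone called 1 (against 0.0452%), near Cyp4f18. By role, the first pattern held for 12 of 48 regions (25.0%) of genes that release or hydrolyse arachidonic acid, 9 of 25 (36.0%) of other lipoxygenases and partners, 13 of 73 (17.8%) of other prostanoid synthases and breakdown enzymes, 7 of 43 (16.3%) of other leukotriene enzymes, 8 of 42 (19%) of prostanoid receptors and 4 of 16 (25.0%) of other leukotriene and lipoxin receptors. Pla2g2e, a secreted phospholipase, and Alox12b, an epidermal lipoxygenase, each had 2 regions, all called in both RXR-deficient libraries and no control library.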

How the data were processed

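Peak lists of 4 ATAC-seq libraries were analysed, as deposited. Per the submitters' notes and the study's methods, the authors trimmed reads with Cutadapt, aligned them to mm10 with Bowtie2, removed duplicates, low-quality, mitochondrial and sex-chromosome reads, and called peaks per library with MACS2 2.1.1 (extension 200 bp, q value 0.05). The deposited fold enrichment is a ratio of tags at the summit to local background, after a pseudocount of 1. The deposited −log10 p and −log10 q values were used to recover the pileup and to rank peaks, and the deposited score was not used. The authors' test on read counts was not repeated, since peak lists hold no counts.

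Peaks sharing at least 1 bp were merged and placed on 43783 RefSeq NM and NR transcripts of mm10. A whole-number pileup was solved for each peak within 0.002 on the −log10 p scale. Regions called in all 4 libraries were fitted with limma 3.58.1 (R 4.3.3, lmFit and eBayes), with Benjamini-Hochberg adjustment over all of them. On simulated data for this comparison (15199 regions), limma called 135 of 200 regions changed 4-fold and 2 of 14999 unchanged ones. The members and gene lists were chosen with earlier results of these data known. All 10 genes were named, each with its promoter region, its strongest region (by log2 fold enrichment averaged over the libraries that called it), any region past a limma threshold, and the strongest region called in 1 genotype; other pathway genes were named when a region passed in fold enrichment or when all of 2 or more regions shared a one-genotype pattern. Other regions were named for their place or their call at equal peak number, after their values were seen. Alternatives were other measures, scalings, filters, merging and placing rules, and each library left out. Reads per region and chromosomes without peaks, with Acsl4 and Vsig4, were not analysed here. Scripts used Python 3.11.15, numpy 2.4.6, pandas 2.3.3, scipy 1.17.1 and pysam 0.24.0.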

Additional observations from a re-analysis of the deposited data

How the results depend on the processing

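The number of the 22 shared member regions past the limma threshold, 0 in fold enrichment, was 1 on the summit pileup, 1 with a mean-variance trend and 4 of 49 when regions called in at least 1 library of each genotype were used (3 higher, near Lta4h, Ptgs1 and Ptgis, where control replicate 3 gave no value, and 1 lower), and 0 with no centring, quantile normalization, the adjusted p alone, summits or a q value of 0.01. It was 0 to 2 when 1 library was left out, with 2 without control replicate 1 (Ltc4s and Ptgs1) and 1 of 42 without replicate 3, and on the pileup, added after the data were seen, 0 to 7. All regions past the threshold numbered 13, against 0 with no centring, 137 with the trend, 785 of 15224 without control replicate 1 (245 higher and 540 lower), 1136 on the pileup and 2887 of 35577 in the wider set, so the number of calls moved with the setting. The Ptgs1 region at 48.6 kb stayed below 0 under all 16 alternatives (−2.28 to −0.66) and passed the threshold under 8 of them. These alternatives re-use the same 4 libraries and are not independent. With the adjusted p alone, a q value of 0.01 and summits the change was −1.03, −1.03 and −1.04, close to the main fit by construction. The region was singled out from these same data.

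The 12 regions of both RXR-deficient libraries alone (of 72, against 22.8% of all merged regions) numbered 0 of 30 at equal peak number (against 7.82%). By gene body alone they numbered 5 of 31 (against 22.8%). With a library left out they numbered 12 to 32 of 72. The 32 is without control replicate 1, where the share of all regions rose to 48.3%. Without control replicate 3 it was 12 (against 22.8%), and without RXR-deficient replicates 1 and 2 it was 17 and 18 (against 29.5% and 41.1%). The reverse pattern (0, against 0.0452%) numbered 4 of 30 at equal number (against 7.22%) and 1 of 78 with summits (against 0.329%). With a library left out it was 0 to 1 of 72, the 1 being without RXR-deficient replicate 2 (against 0.0763%). Regions called per library (49 and 23, 64 and 62 of 72) were 25 and 23, 14 and 20 of 30 at equal number. By gene body alone they were 23 and 9, 29 and 28 of 31, beside the same shares of all merged regions as given above.

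Directions turned for the member median with no centring (0.095), and with it Ltc4s (0.26), Lta4h (0.095) and, at Ptgs1, the regions at 9.3 kb (0.095) and 40.9 kb (0.062). The 9.3 kb region was also 0.11 with quantile normalization, and it ran from −0.81 to 0.0028 with a library left out. The Ltc4s promoter was 0.21 on the pileup, and 0.055, 0.33 and 0.089 there without control replicate 1 and RXR-deficient replicates 1 and 2. The strongest Alox5 and Ptgis regions turned to −0.063 and −0.052 without control replicate 3 (ranges with a library left out −0.063 to 0.20 and −0.052 to 0.71). Why they turned was not tested. No paired analysis was possible because the replicate numbers of the genotypes share only the number 1. With 16097 peaks, control replicate 3, the library with the fewest peaks, limits which regions can be compared.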
